A study of Mus musculus with 9 samples.

Results

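Lipid handling in macrophages is read here from 10 genes: Apoe, Lpl, Fabp4, Fabp5, Trem2, Gpnmb, Plin2, Abca1, Abcg1 and Cd9. They were taken by symbol from a table of 28764 genes, and all 10 were listed there. The samples were phagocytes sorted from the peritoneal wall of 3 mice that carried 1 GFP allele at Cx3cr1 and 1 RFP allele at Ccr2, so every group shares both reporter alleles; age and sex were not stated. Each mouse had received 50 µg of labelled dextran intravenously 1 day earlier and was perfused, the wall was digested with Liberase for 20 min, and CD11b+ Ly6G- cells were split into 3 populations with 3 libraries each, numbered by sort as 1, 2A and 2B. The double-negative population took up dextran, lacked MHC class II and both reporters, and made up 85 to 90% of the gate; the labels call it the majority of sessile resident macrophages. The CCR2-RFP population was MHC class II+ and RFP+ without GFP (10 to 15% of the gate, named migratory tissue monocytes), and the CX3CR1-GFP population was MHC class II+ and GFP+ without RFP (0.5 to 1.5%, named sessile resident macrophages). No treatment or lipid challenge was compared, so every contrast below is between populations of unchallenged tissue.

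Macrophages take up lipoproteins and cell debris, split triglycerides and cholesterol esters, bind the released fatty acids, store the excess in droplets and return cholesterol to carriers outside the cell. Apolipoprotein E and the transporters ABCA1 and ABCG1 serve the return leg, and both transporter genes are known targets of the oxysterol-sensing liver X receptors. In obese fat, atherosclerotic plaque and brain, a lipid-associated macrophage state is defined by the receptor TREM2 together with Gpnmb, Cd9, Fabp4, Fabp5, Lpl and Spp1.

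Expression was given as TPM (transcript abundance corrected for length and scaled to a fixed total), so levels can be compared between genes; read counts were not used here and the depth behind a value is unknown. Differences between populations were tested with limma on log2(TPM + 1) over 10136 genes that reached 1 TPM in at least 3 of the 9 libraries, and were called at a Benjamini-Hochberg adjusted p under 0.05. Log2 differences are on that scale and understate the change of low genes, whereas folds are ratios of mean TPM. With 3 libraries per population the p-values rest on the spread between these libraries, and the 3 contrasts share libraries in pairs. In sorted bulk samples, fewer expressing cells and less RNA per cell cannot be told apart.

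The reporter genes followed the labels. Ccr2 was at 95.4 to 115 TPM in the CCR2-RFP libraries against 1.65 to 6.68 TPM elsewhere, and Cx3cr1 was at 4.13 to 16.4 TPM in the CX3CR1-GFP libraries and listed at 0 in the other 6. The MHC class II gene H2-Aa was at 1682 to 1937 TPM in CCR2-RFP and 467 to 893 TPM in CX3CR1-GFP libraries. In the double-negative libraries, sorted as lacking MHC class II, it was lower but present, at 44.3, 68.7 and 91.7 TPM. The 10 macrophage markers had summed levels of 1063 to 1195 TPM in double-negative libraries, 511 to 554 TPM in CCR2-RFP and 952 to 1100 TPM in CX3CR1-GFP cells. Single markers did not all follow that sum: Fcgr1 was at 0.106 and 0.267 TPM in CCR2-RFP 2A and 2B against 10.5 to 14.7 TPM in the other 2 populations, whereas Itgam was higher in CCR2-RFP libraries, at 41.1 to 50.6 TPM against 11.8 to 20.4 TPM. The CCR2-RFP libraries had higher sums of 9 monocyte markers (2166 to 2692 TPM against 1206 to 1886 TPM in the other 6) and of 10 conventional dendritic cell markers (146 to 198 TPM against 22.7 to 76.6 TPM). Of the 3 libraries of sort 2A, 2 stood apart: 6 skeletal muscle genes summed to 796 TPM in CCR2-RFP 2A and 1387 TPM in CX3CR1-GFP 2A, against 33.2 to 296 TPM in the other 7. Of 12 adipocyte markers 5 reached 1 TPM in any library; Adipoq stayed at or under 1.69 TPM and Plin1 at or under 0.680 TPM, while Car3 reached 52.0 TPM in CCR2-RFP 2A and 75.8 TPM in CX3CR1-GFP 2A, and Cfd 5.33 and 10.5 TPM in CX3CR1-GFP 2A and 2B. The part of these other cell types in the results was not tested, and the counts of called genes are also given without sort 2A.

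Of the 10 genes, 7 set the CCR2-RFP cells apart from the other 2 populations, 4 of them by higher and 3 by lower levels. Lpl, Fabp5, Abcg1 and Cd9 were higher in CCR2-RFP cells than in double-negative cells, Apoe, Abca1 and Trem2 were lower, and Fabp4 and Plin2 were not called. Of the 9 tested genes 7 were thus called, against a background of 24.8% of all tested genes (14.9% called higher and 9.88% called lower); the 7 include Abcg1, which passed the filter only through the CCR2-RFP libraries and so had to differ. Between the CX3CR1-GFP and double-negative populations 1 of the 9, Cd9, was called higher and none lower, against a background of 2.77% (1.16% higher and 1.61% lower); 3 of the 9 had an unadjusted p under 0.05 in limma. CX3CR1-GFP against CCR2-RFP called 3 genes higher and 4 lower, against a background of 26.3% (8.96% higher and 17.3% lower). The median absolute log2 difference over the 9 was 2.01, 0.41 and 1.87 in these 3 contrasts, against 0.39, 0.24 and 0.43 over all tested genes. The 10 genes were chosen with earlier results of these data known, so these comparisons with the background are descriptions and no test of the set. Without sort 2A the counts were 6, 0 and 6 of 8 tested genes, beside 1652, 88 and 1767 of 9311 over all tested genes; Abcg1 was no longer tested there, Cd9 was no longer called between CX3CR1-GFP and either other population, and Fabp4 was called between CX3CR1-GFP and CCR2-RFP cells. Gpnmb failed the filter on low values and was not tested in any contrast.

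**Figure D1:**
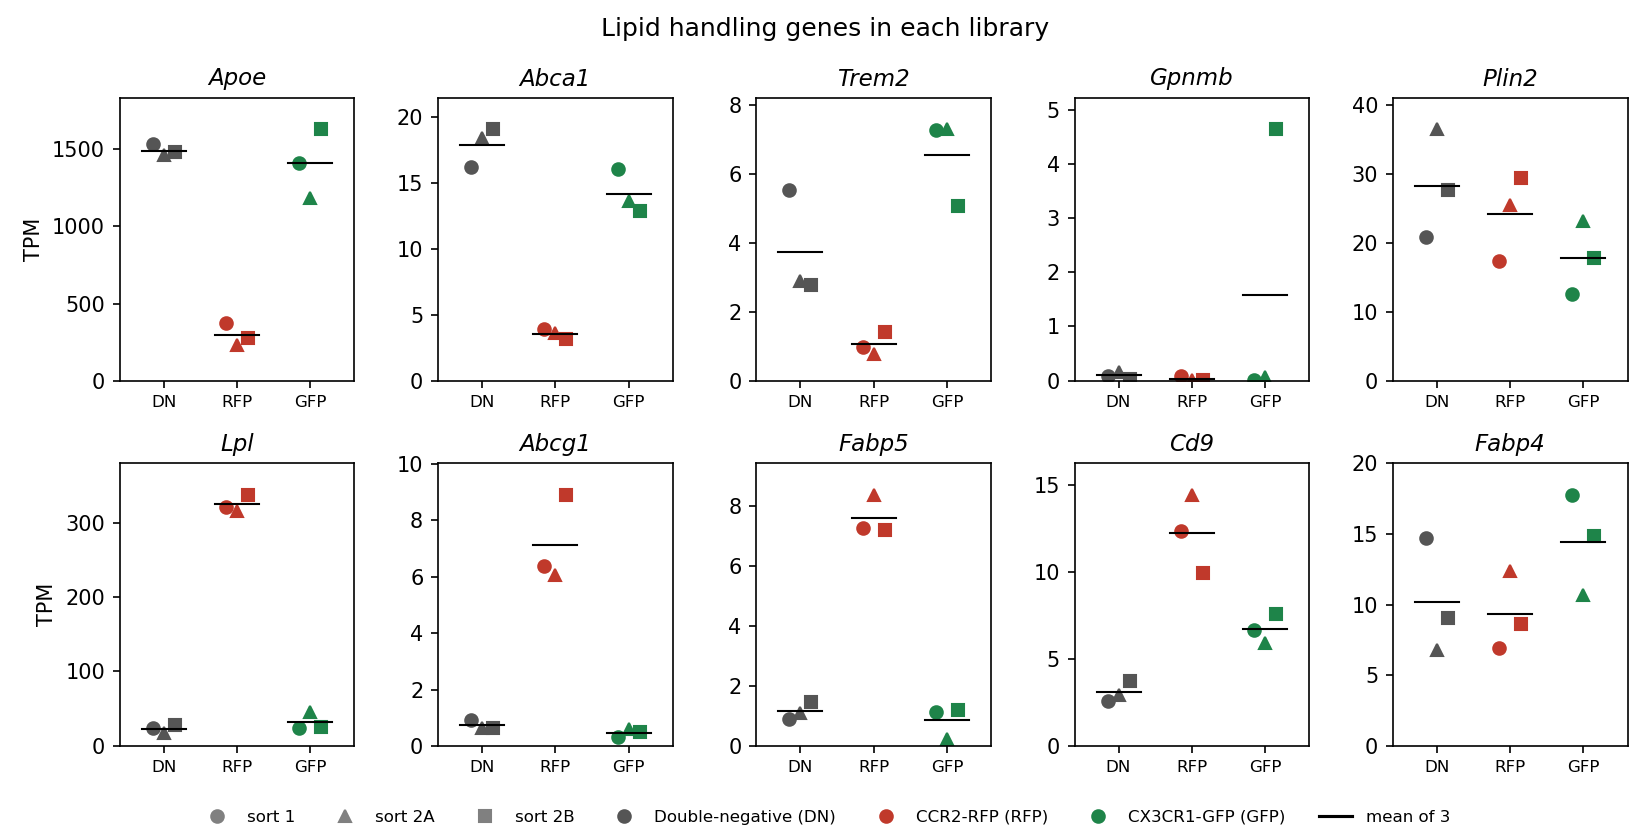
TPM of the 10 genes (linear axes from 0, a scale per gene) in each of the 9 libraries; colours are populations, symbols are sorts, and bars are means of 3. Apoe, Abca1 and Trem2 sit low in all 3 CCR2-RFP libraries, whereas Lpl, Abcg1, Fabp5 and Cd9 sit high there; Gpnmb is near 0 in 8 libraries and at 4.64 TPM in CX3CR1-GFP 2B.

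The upstream sequences of the 3 genes that fell together in CCR2-RFP cells are shown because they allow the shared direction to be set beside shared letters. Each is the 250 bases before a RefSeq transcription start (GRCm38.p6), written 5′ to 3′ on the gene's strand. RefSeq promoter entries were matched for 6 of the 10 genes. Apoe had more than 1 entry, and the window furthest upstream is shown. Its windows at chr7:19698622-19698871 and chr7:19698399-19698648 are not printed. Capitals mark matches, on either strand, to a pair of half-sites of the kind liver X receptors bind (GGTNA, 5 bases of any kind, GGTCA) and to the E-box CACGTG; both motifs were chosen after the sequences were seen.
Abca1, chr4:53159896-53160145, minus strand: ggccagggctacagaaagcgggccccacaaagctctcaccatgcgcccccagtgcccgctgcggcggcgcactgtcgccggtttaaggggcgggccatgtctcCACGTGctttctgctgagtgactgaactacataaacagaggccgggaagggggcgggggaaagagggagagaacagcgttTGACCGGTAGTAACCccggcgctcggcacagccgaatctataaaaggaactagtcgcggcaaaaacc
Apoe, chr7:19699189-19699438, minus strand: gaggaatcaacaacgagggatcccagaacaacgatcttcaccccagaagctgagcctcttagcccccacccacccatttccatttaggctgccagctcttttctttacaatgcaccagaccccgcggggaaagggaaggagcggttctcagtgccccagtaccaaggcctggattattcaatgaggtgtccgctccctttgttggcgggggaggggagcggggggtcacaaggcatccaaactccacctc
Trem2, chr17:48346151-48346400, plus strand: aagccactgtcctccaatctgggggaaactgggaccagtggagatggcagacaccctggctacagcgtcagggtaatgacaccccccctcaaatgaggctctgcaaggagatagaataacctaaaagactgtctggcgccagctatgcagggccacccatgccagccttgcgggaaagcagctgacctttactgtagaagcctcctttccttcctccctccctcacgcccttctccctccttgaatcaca
The Abca1 window held 1 match to each motif, which do not overlap: the half-site pair lay at positions -67 to -53 from the start on the opposite strand, and the E-box at positions -147 to -142. Among 32851 promoter windows of this length the half-site pair occurred in 0.177% and the E-box in 6.02%. Because both motifs were chosen after the sequences were seen, these shares do not measure how unusual the matches are. Neither motif was found in the windows of Apoe, Trem2, Plin2, Gpnmb and Cd9. A match is a run of letters and was not tested as a site, and a window without a match says nothing about binding elsewhere.

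Apoe (chromosome 7, 19696109 to 19699188, minus strand; coordinates throughout are GRCm38 with GENCODE M21 genes) encodes apolipoprotein E, the secreted lipoprotein component by which macrophages pass on cholesterol. It stood at 1533, 1463 and 1481 TPM in double-negative libraries 1, 2A and 2B, at 1413, 1185 and 1629 TPM in the CX3CR1-GFP libraries and at 376, 233 and 275 TPM in the CCR2-RFP libraries. Apoe was the most abundant of the 10 genes in the double-negative and CX3CR1-GFP cells, where its mean ranked 16th and 18th among all listed genes, and it remained a high transcript, ranked 92nd, in CCR2-RFP cells. The CCR2-RFP mean of 295 ± 73.7 TPM (SD, n = 3) was 5.06-fold below the double-negative mean of 1493 ± 36.2 TPM, with no overlap of libraries (log2 difference -2.37, SE 0.187, limma Benjamini-Hochberg adjusted p = 1.38e-05). CX3CR1-GFP cells, at 1409 ± 222 TPM, were 4.78-fold above CCR2-RFP cells (log2 difference 2.27, SE 0.187, limma adjusted p = 2.18e-05). Against double-negative cells their log2 difference was -0.09 with a 95% interval of -0.51 to 0.32, and the libraries overlapped.

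Abca1 (chromosome 4, 53030787 to 53159895, minus strand) encodes the transporter that loads cholesterol and phospholipid onto lipid-poor apolipoproteins. Its levels were 16.2, 18.4 and 19.0 TPM in double-negative libraries, 16.1, 13.6 and 12.8 TPM in CX3CR1-GFP and 3.90, 3.64 and 3.14 TPM in CCR2-RFP libraries. The 3 CCR2-RFP values lay below all 6 others. The mean fell from 17.9 ± 1.51 TPM in double-negative to 3.56 ± 0.386 TPM in CCR2-RFP cells (SD, n = 3), which is 5.02-fold lower (log2 difference -2.05, SE 0.160, limma adjusted p = 1.23e-05). CX3CR1-GFP cells were 3.98-fold above CCR2-RFP cells (log2 difference 1.73, SE 0.160, limma adjusted p = 3.85e-05). All 3 CX3CR1-GFP libraries lay below all 3 double-negative libraries, but the log2 difference of -0.32 (interval -0.67 to 0.04) was not called (limma adjusted p = 0.389).

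Abcg1 (chromosome 17, 31057675 to 31117988, plus strand) encodes the companion transporter that moves cholesterol to mature high-density lipoprotein. Its levels ran opposite to those of Abca1: 6.39, 6.07 and 8.91 TPM in CCR2-RFP libraries, 0.936, 0.645 and 0.647 TPM in double-negative libraries and 0.324, 0.584 and 0.499 TPM in CX3CR1-GFP libraries. It reached 1 TPM in the CCR2-RFP population alone, so it entered the test only through the group where it was high and had to differ. The CCR2-RFP mean of 7.12 ± 1.56 TPM was 9.60-fold the double-negative mean of 0.742 ± 0.167 TPM (log2 difference 2.21, SE 0.205, limma adjusted p = 3.20e-05) and 15.2-fold the CX3CR1-GFP mean of 0.469 ± 0.132 TPM (log2 difference CX3CR1-GFP minus CCR2-RFP -2.45, SE 0.205, limma adjusted p = 2.33e-05). The CX3CR1-GFP and double-negative libraries did not overlap, yet both groups were under 1 TPM and their log2 difference of -0.25 was not called (interval -0.70 to 0.21).

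The ratio of the 2 transporter transcripts within a library follows from the levels given above and is no further test. Abcg1 was under 1 TPM in all libraries outside CCR2-RFP. The ratio of Abcg1 to Abca1 TPM was 1.64, 1.67 and 2.84 in CCR2-RFP libraries 1, 2A and 2B. It was 0.0579, 0.0350 and 0.0340 in double-negative libraries and 0.0202, 0.0430 and 0.0389 in CX3CR1-GFP libraries. Abcg1 exceeded Abca1 in all 3 CCR2-RFP libraries and was below it in the other 6; such a ratio does not depend on how a library was scaled.

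Lpl (chromosome 8, 68880491 to 68907448, plus strand) encodes lipoprotein lipase, the secreted enzyme that frees fatty acids from the triglycerides of circulating lipoproteins. It stood at 321, 316 and 338 TPM in CCR2-RFP libraries, against 24.5, 17.1 and 28.5 TPM in double-negative libraries and 24.6, 46.1 and 25.3 TPM in CX3CR1-GFP libraries. Every CCR2-RFP value lay above all 6 others. The mean of 325 ± 11.4 TPM, 85th among all listed genes, was 13.9-fold the double-negative mean of 23.4 ± 5.77 TPM (log2 difference 3.77, SE 0.249, limma adjusted p = 5.14e-06). The CX3CR1-GFP mean of 32.0 ± 12.2 TPM was 10.1-fold lower than that of CCR2-RFP cells (log2 difference -3.36, SE 0.249, limma adjusted p = 1.15e-05). CX3CR1-GFP and double-negative libraries overlapped (log2 difference 0.41, interval -0.15 to 0.96), and without sort 2A that difference was -0.08. Muscle and fat also express Lpl. The highest CX3CR1-GFP value, 46.1 TPM, came from the library with the highest sum of muscle genes. The CCR2-RFP libraries 1 and 2B, with muscle sums of 38.1 and 33.2 TPM, had Lpl at 321 and 338 TPM. Library 2A, with a muscle sum of 796 TPM, had 316 TPM. The part of muscle or fat in the Lpl values was not tested.

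Lpl and Apoe together made up most of the signal of the 10 genes, in different proportions. Apoe held 94.1 to 94.7% of the summed TPM of the 10 genes in double-negative, 91.7 to 94.8% in CX3CR1-GFP and 37.5 to 50.0% in CCR2-RFP libraries. Lpl held 1.11 to 1.81%, 1.47 to 3.57% and 42.6 to 51.0% of that sum in the same order. Within a library, the ratio of Lpl to Apoe was 0.852, 1.36 and 1.23 in CCR2-RFP cells and at most 0.0389 in the other 6 libraries. Lpl exceeded Apoe in CCR2-RFP 2A and 2B but not in CCR2-RFP 1.

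Fabp5 (chromosome 3, 10012548 to 10016607, plus strand) and Fabp4 (chromosome 3, 10204088 to 10208576, minus strand) both encode cytosolic fatty acid binding proteins. FABP5 is the epidermal form and FABP4 the adipocyte form, and macrophages can make both. Fabp5 was at 7.27, 8.38 and 7.21 TPM in CCR2-RFP libraries, at 0.898, 1.09 and 1.46 TPM in double-negative libraries and at 1.12, 0.231 and 1.20 TPM in CX3CR1-GFP libraries. The CCR2-RFP libraries stood apart from all others, while the other 2 populations overlapped around 1 TPM. The CCR2-RFP mean of 7.62 ± 0.661 TPM was 6.63-fold the double-negative mean of 1.15 ± 0.283 TPM (log2 difference 2.01, SE 0.251, limma adjusted p = 0.000217). The CX3CR1-GFP mean of 0.852 ± 0.539 TPM was 8.95-fold below CCR2-RFP (log2 difference -2.26, SE 0.251, limma adjusted p = 0.000114).

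Fabp4 did not follow Fabp5. The levels of Fabp4 were 14.7, 6.76 and 9.06 TPM in double-negative libraries, 6.96, 12.4 and 8.64 TPM in CCR2-RFP and 17.8, 10.7 and 14.8 TPM in CX3CR1-GFP libraries. The ranges of all 3 populations overlapped and no contrast was called. The log2 difference was -0.08 (interval -0.74 to 0.57, limma adjusted p = 0.879) for CCR2-RFP against double-negative, 0.50 (interval -0.16 to 1.16, limma adjusted p = 0.475) for CX3CR1-GFP against double-negative and 0.58 (interval -0.07 to 1.24, limma adjusted p = 0.180) for CX3CR1-GFP against CCR2-RFP. The last passed the threshold without sort 2A (log2 difference 0.98, limma adjusted p = 0.0401) and after rescaling each library without its most abundant genes (0.90, limma adjusted p = 0.0476). Fabp4 was highest in CCR2-RFP 2A among the CCR2-RFP libraries. The adipocyte marker sum there was 60.1 TPM, against 3.78 and 5.13 TPM in libraries 1 and 2B, but 52.0 TPM of it was Car3. Adipoq and Plin1 were at 0.688 and 0.680 TPM in that library. In CX3CR1-GFP 2A Fabp4 was the lowest of its population, beside an adipocyte marker sum of 86.1 TPM with Car3 at 75.8 TPM. Car3 was highest in the same 2 libraries as the muscle genes, so these sums cannot be read as fat alone. The sums of 11 capillary endothelium markers were 9.22, 2.33 and 6.43 TPM in double-negative libraries 1, 2A and 2B. They were 9.84, 2.83 and 7.30 TPM in the CX3CR1-GFP libraries and 15.7, 8.31 and 18.3 TPM in the CCR2-RFP libraries. In the latter, Cd300lg held 12.9, 5.57 and 16.2 TPM of the sum. The part of fat or endothelium in the Fabp4 values was not tested. The ratio of Fabp5 to Fabp4 transcripts was 1.04, 0.676 and 0.834 in CCR2-RFP libraries and between 0.0216 and 0.162 in the other 6. With Fabp4 not called, this ratio mainly restates the difference of Fabp5, and the proteins were not measured.

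**Figure D2:**
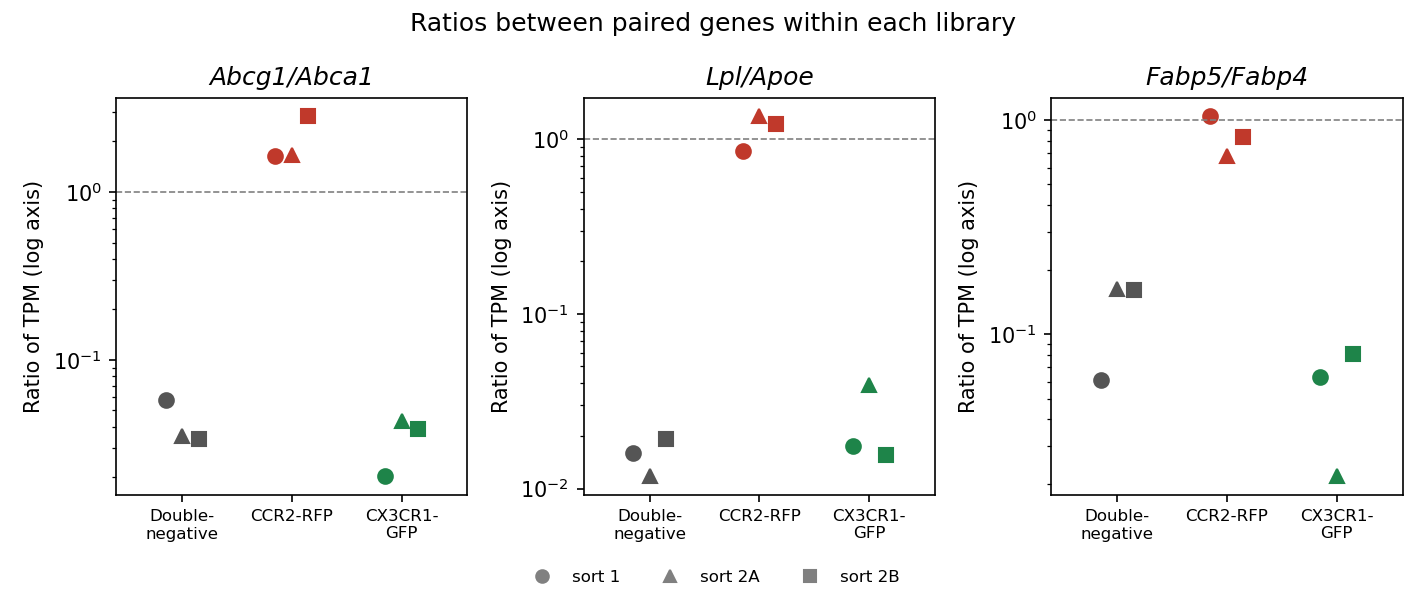
Ratio of TPM values of Abcg1 to Abca1, Lpl to Apoe and Fabp5 to Fabp4 within each library (log axes, dashed line at equal levels); symbols are sorts. In each panel the 3 CCR2-RFP libraries lie above the other 6, at 1.64 to 2.84, 0.852 to 1.36 and 0.676 to 1.04. The ratios restate the levels of the single genes and are no further test.

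Plin2 (chromosome 4, 86648386 to 86670060, minus strand) encodes perilipin 2, the coat protein of lipid droplets outside fat cells and a common measure of lipid loading. Its levels were 20.9, 36.5 and 27.6 TPM in double-negative libraries, 17.4, 25.5 and 29.4 TPM in CCR2-RFP and 12.5, 23.1 and 17.8 TPM in CX3CR1-GFP libraries. All 3 ranges overlapped. Within each sort, however, the CX3CR1-GFP library lay below both others, in 3 of 3 sorts. The means of 28.3 ± 7.81, 24.1 ± 6.13 and 17.8 ± 5.31 TPM gave no called contrast. The intervals of the log2 difference were -0.83 to 0.39 for CCR2-RFP against double-negative and -1.04 to 0.19 for CX3CR1-GFP against CCR2-RFP. CX3CR1-GFP against double-negative had a log2 difference of -0.64 (interval -1.26 to -0.03) and an adjusted p of 0.306 in limma. With sort as a replicate block the limma adjusted p of Plin2 was 0.0927 for CX3CR1-GFP against double-negative and 0.0931 against CCR2-RFP, which left both uncalled.

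Trem2 (chromosome 17, 48346401 to 48354147, plus strand) encodes the lipid-sensing receptor after which the lipid-associated macrophage state is often named. It was a low transcript: 7.29, 7.30 and 5.07 TPM in CX3CR1-GFP, 5.53, 2.89 and 2.77 TPM in double-negative libraries and 0.987, 0.775 and 1.40 TPM in CCR2-RFP libraries. The CCR2-RFP libraries were the lowest 3 of the 9, and the CX3CR1-GFP and double-negative ranges overlapped through double-negative 1. The CCR2-RFP mean of 1.05 ± 0.319 TPM was 3.53-fold below the double-negative mean of 3.73 ± 1.56 TPM (log2 difference -1.17, SE 0.260, limma adjusted p = 0.00791). Without sort 2A this call stood at a limma adjusted p of 0.0464. The CX3CR1-GFP mean of 6.55 ± 1.28 TPM was 6.21-fold above CCR2-RFP (log2 difference 1.87, SE 0.260, limma adjusted p = 0.000492), and its log2 difference of 0.71 from double-negative cells was not called (interval 0.13 to 1.29, limma adjusted p = 0.222).

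Gpnmb (chromosome 6, 49036546 to 49070929, plus strand) encodes a lysosome-associated membrane glycoprotein that rises in lipid-laden macrophages. Its levels were 0.0871, 0.161 and 0.0398 TPM in double-negative libraries, 0.0847, 0.0165 and 0.0168 TPM in CCR2-RFP and 0.0192, 0.0611 and 4.64 TPM in CX3CR1-GFP libraries. All but CX3CR1-GFP 2B were below 1 TPM, and the value in that single library has no match in its 2 replicates. In that library Apoc1, an apolipoprotein gene next to Apoe, was at 1.02 TPM against at most 0.0765 TPM in the other 8, and Mmp12, a macrophage elastase, was at 19.9 TPM against 0.0987 and 0.834 TPM in the other CX3CR1-GFP libraries, 0.122 to 0.342 TPM in double-negative libraries and 2.37, 14.0 and 9.73 TPM in CCR2-RFP libraries. Both were singled out after their values were seen.

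Cd9 (chromosome 6, 125460266 to 125494791, minus strand) encodes a tetraspanin of the plasma membrane and extracellular vesicles, used to sort lipid-associated macrophages from fat. It was the only one of the 9 tested genes with a called difference in every contrast: 12.4, 14.5 and 9.98 TPM in CCR2-RFP, 6.65, 5.92 and 7.57 TPM in CX3CR1-GFP and 2.59, 2.95 and 3.72 TPM in double-negative libraries. The 3 ranges did not overlap. The CCR2-RFP mean of 12.3 ± 2.25 TPM was 3.98-fold the double-negative mean of 3.08 ± 0.577 TPM (log2 difference 1.70, SE 0.195, limma adjusted p = 0.000124). The CX3CR1-GFP mean of 6.71 ± 0.830 TPM was 2.18-fold that of double-negative cells (log2 difference 0.92, SE 0.195, limma adjusted p = 0.0348) and 1.83-fold below that of CCR2-RFP cells (log2 difference -0.78, SE 0.195, limma adjusted p = 0.0143).

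The calls of the intermediate CX3CR1-GFP level of Cd9 were less firm than the others. Against double-negative cells the adjusted p in limma was 0.0682 with sort as a replicate block, 0.0622 with a pseudocount of 5 TPM, 0.0800 without the filter on low values and 0.0682 with the 2 populations alone. It was 0.145, 0.118 and 0.0594 without double-negative 1, 2A and 2B, 0.0866, 0.0553 and 0.0893 without CX3CR1-GFP 1, 2A and 2B, 0.0621 without CCR2-RFP 1 and 0.156 without sort 2A. Against CCR2-RFP cells it was 0.126 after rescaling without the most abundant genes, 0.0925 after quantile normalization, 0.0588 without CCR2-RFP 2A and 0.147 without sort 2A. The direction of Cd9 was the same in all 20 alternatives of both contrasts. Cd9 shares 218 exon bases (10.7% of its exons) with Gm26728 on the other strand, which was listed at 0 in every library.

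**Figure D3:**
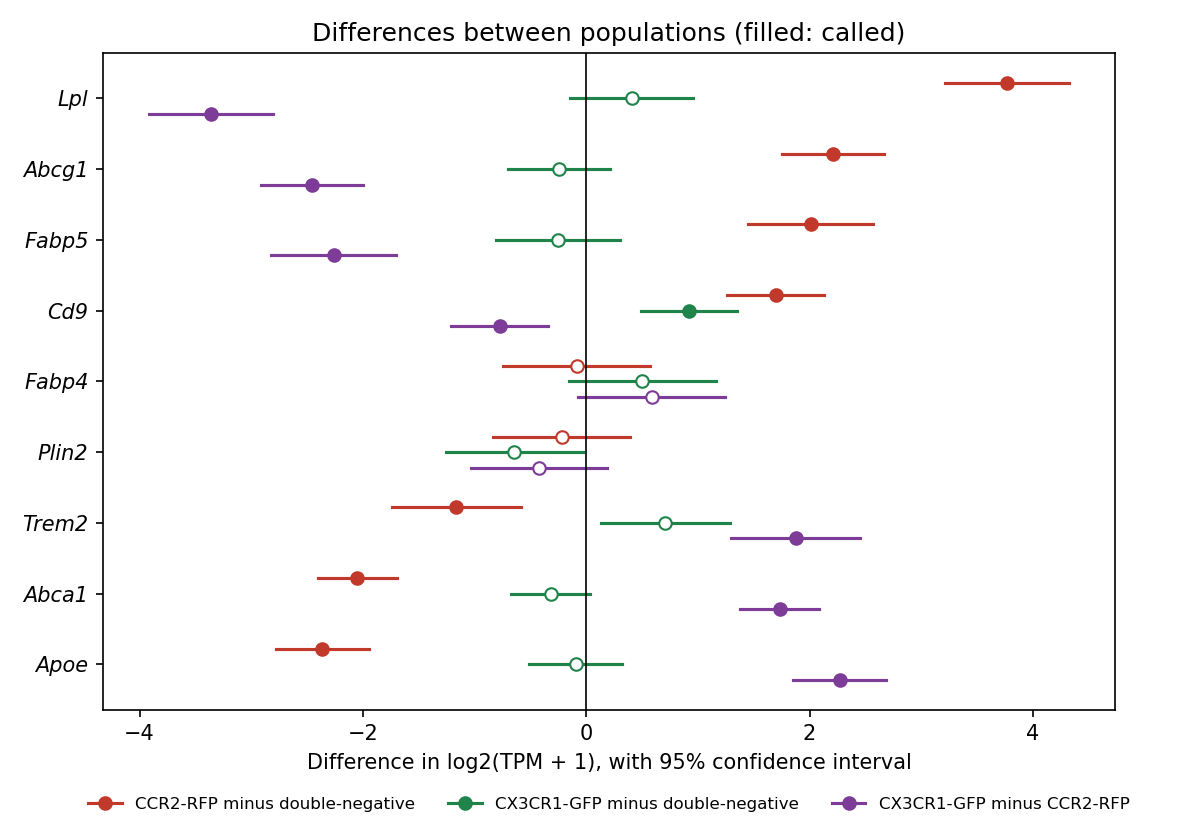
Difference in log2(TPM + 1) between populations for the 9 tested genes (points, with 95% confidence intervals from limma); filled points are called at an adjusted p under 0.05. Lpl, Abcg1, Fabp5 and Cd9 lie to the right and Trem2, Abca1 and Apoe to the left for CCR2-RFP minus double-negative, and 8 of the 9 points for CX3CR1-GFP minus double-negative are open.

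The other genes of these pathways were taken from 9 lists with 146 genes in all. Each list holds genes other than the 10, and its counts are to be read beside the shares over all tested genes. Those shares were 24.8% called for CCR2-RFP against double-negative, 2.77% for CX3CR1-GFP against double-negative and 26.3% for CX3CR1-GFP against CCR2-RFP. The larger number of listed genes called in the contrasts with CCR2-RFP cells thus goes with more calls over all genes. Among the 34 listed genes called between CCR2-RFP and double-negative cells, 23 were called in every alternative that tested them. The same held for 1 of 9 between CX3CR1-GFP and double-negative cells and for 21 of 41 between CX3CR1-GFP and CCR2-RFP cells. Without sort 2A, 23, 2 and 24 of these calls were made. The median log2 difference of a list ranged from -0.69 to 0.24 for CCR2-RFP minus double-negative, from -0.38 to 0.11 for CX3CR1-GFP minus double-negative and from -0.49 to 0.45 for CX3CR1-GFP minus CCR2-RFP, against 0.09, -0.03 and -0.11 over all tested genes.

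Of 18 genes of lipid uptake and lipoprotein receptors, 13 were tested; 2 were higher and 3 lower in CCR2-RFP cells than in double-negative cells, with a median log2 difference of -0.10 against 0.09 over all tested genes. Cd36, the scavenger receptor for oxidised lipoproteins and fatty acids, was at 504 ± 94.6 TPM in double-negative libraries, 284 ± 39.6 TPM in CX3CR1-GFP and 85.7 ± 25.5 TPM in CCR2-RFP cells. It fell by 2.58 on the log2 scale between double-negative and CCR2-RFP cells (limma adjusted p = 2.90e-05). Msr1, scavenger receptor A, followed Apoe and Abca1 in direction, at 39.4 ± 0.562, 33.5 ± 2.16 and 8.53 ± 2.38 TPM in the same order (CCR2-RFP minus double-negative -2.11, limma adjusted p = 2.09e-05). Slc27a3, of the fatty acid transport protein family, moved with Lpl instead, with a mean of 3.75 ± 1.20 TPM in CCR2-RFP cells against 0.0732 and 0.0693 TPM in double-negative libraries and CX3CR1-GFP cells (log2 difference 2.12 from double-negative, limma adjusted p = 4.93e-05); like Abcg1, it passed the filter only through CCR2-RFP and had to differ. Between CX3CR1-GFP and CCR2-RFP cells 3 of the 13 were higher and 2 lower. None was called between CX3CR1-GFP and double-negative cells, where 4 had an unadjusted p under 0.05 in limma.

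Of 20 genes of cholesterol efflux and sterol transport, 16 were tested, and none was higher and 3 were lower in CCR2-RFP cells than in double-negative cells. In CX3CR1-GFP cells 1 was higher and 1 lower than in double-negative cells, and 3 were higher and 2 lower than in CCR2-RFP cells. Cyp27a1, the mitochondrial sterol 27-hydroxylase, fell with Abca1, from 28.0 ± 1.24 to 8.42 ± 1.36 TPM (log2 difference -1.63, limma adjusted p = 6.14e-05). Pltp, the phospholipid transfer protein, set the CX3CR1-GFP cells apart instead: 91.0 ± 8.70 TPM against 203 ± 19.6 TPM in double-negative libraries and 228 ± 16.3 TPM in CCR2-RFP cells (log2 differences -1.15 and -1.32, limma adjusted p = 0.00174 and 5.80e-05). Ch25h, cholesterol 25-hydroxylase, was at 3.61, 3.01 and 1.47 TPM in CX3CR1-GFP libraries and at or under 0.423 TPM in the other 6, 4 of which listed it at 0. It passed the filter only through the CX3CR1-GFP libraries and had to differ. Its limma adjusted p was 0.0102 against double-negative and 0.00141 against CCR2-RFP cells, and the former call was lost in 4 of 15 alternatives with a highest adjusted p of 0.0547. The liver X receptor genes, named after their values were seen, stayed low: Nr1h2, not called in any contrast, had means of 6.06, 7.39 and 5.42 TPM in double-negative libraries, CCR2-RFP and CX3CR1-GFP cells, and Nr1h3 was at or under 0.629 TPM in every library.

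Of 26 droplet and triglyceride genes 15 were tested. In CCR2-RFP cells 1 was higher and none lower than in double-negative cells, against 14.9% and 9.88% of all tested genes. That gene was Plin3, a perilipin of small and nascent droplets, at 13.3 ± 0.967 TPM in CCR2-RFP, 3.44 ± 2.23 TPM in double-negative libraries and 2.50 ± 2.05 TPM in CX3CR1-GFP cells (log2 difference 1.81 from double-negative, limma adjusted p = 0.0119). Plin3 and Plin2 thus differed in pattern, Plin2 having no called contrast. Between CX3CR1-GFP and CCR2-RFP cells 3 of the 15 were lower: Plin3 (-2.19, limma adjusted p = 0.00440), the seipin gene Bscl2 (-0.94, adjusted p = 0.00901) and the hormone-sensitive lipase gene Lipe (-0.66, adjusted p = 0.0400), the last lost in 13 of 19 alternatives. No gene of the list was called between CX3CR1-GFP and double-negative cells, where 4 had an unadjusted p under 0.05 in limma.

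Of 14 genes of the other fatty acid binding proteins and the PPAR axis 7 were tested. Ucp2, a mitochondrial inner membrane carrier, was at 234 ± 21.1 TPM in CCR2-RFP cells against 118 ± 20.8 TPM in double-negative cells (log2 difference 0.99, limma adjusted p = 0.00266). Pparg, the nuclear receptor known to drive Fabp4, was at 2.65 ± 0.0370 TPM in CCR2-RFP and 0.706 ± 0.627 TPM in double-negative cells (1.16, limma adjusted p = 0.0262), a call lost in 8 of 19 alternatives. Ppard went the other way, from 4.81 ± 1.03 to 2.07 ± 0.425 TPM (-0.91, limma adjusted p = 0.00876). Of 18 fatty acid oxidation genes 17 were tested. In CCR2-RFP cells 1 was higher and 1 lower than in double-negative cells, against 14.9% and 9.88% of all tested genes. Beside 17.3% of all tested genes, 4 of the 17 were lower in CX3CR1-GFP than in CCR2-RFP cells. One of the latter was the electron transfer flavoprotein gene Etfb, at 4.11 ± 0.200 against 12.5 ± 4.15 TPM (-1.36, limma adjusted p = 0.00115). The others named were Etfa, the partner subunit, at 8.76 ± 2.57 against 18.0 ± 0.364 TPM (-0.998, limma adjusted p = 0.0122), and Cpt1a, the carnitine palmitoyltransferase that admits fatty acids to mitochondria, at 6.87 ± 1.10 against 10.9 ± 1.74 TPM (-0.60, limma adjusted p = 0.0357), the latter lost in 10 of 20 alternatives. Neither list had a call between CX3CR1-GFP and double-negative cells; 1 gene of each had an unadjusted p under 0.05 in limma.

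Of 14 genes around TREM2 signalling 10 were tested, 3 of them higher and 1 lower in CCR2-RFP cells than in double-negative cells, while Trem2 itself was lower. Plcg2, the phospholipase C downstream of the receptor, was at 26.6 ± 2.75 TPM in CCR2-RFP cells against 5.89 ± 1.72 TPM in double-negative libraries and 6.38 ± 1.77 TPM in CX3CR1-GFP cells (log2 difference 2.02 from double-negative, limma adjusted p = 0.000108). The other 2, Adam10, a protease that sheds TREM2, and Vav3, an exchange factor, had log2 differences of 0.67 and 0.61 and were no longer called in 15 and 11 of 20 alternatives; both were named after their values were seen. Tyrobp, the adaptor through which TREM2 signals, was abundant everywhere, at 161 ± 36.2, 179 ± 29.0 and 115 ± 8.66 TPM in double-negative libraries, CCR2-RFP and CX3CR1-GFP cells. It was lower in CX3CR1-GFP than in CCR2-RFP cells (-0.62, limma adjusted p = 0.0280), a call lost in 9 of 20 alternatives. Tyrobp was named after its values were seen. Between CX3CR1-GFP and CCR2-RFP cells 2 of the 10 were higher and 4 lower, and none was called between CX3CR1-GFP and double-negative cells, where 2 had an unadjusted p under 0.05 in limma. Pik3cg, a phosphoinositide kinase, was lower in CCR2-RFP cells, at 11.9 ± 3.93 against 23.1 ± 2.52 TPM (-0.94, limma adjusted p = 0.0157). Syk, the kinase recruited by the adaptor, was at 16.7 ± 2.56 TPM in CX3CR1-GFP cells and 30.4 ± 4.53 TPM in CCR2-RFP cells (-0.83, limma adjusted p = 0.00664), a call lost in 3 of 20 alternatives.

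The other lipid-associated macrophage markers did not move as a block. Of 17 tested, 4 were higher and 7 lower in CCR2-RFP cells than in double-negative cells, and 1 was higher and 4 were lower in CX3CR1-GFP than in double-negative cells. Anxa2, a membrane-binding annexin, was at 141 ± 16.3 TPM in CCR2-RFP and 22.4 ± 2.09 TPM in double-negative cells (2.59, limma adjusted p = 2.83e-06). Itgax, the CD11c gene and also one of the dendritic cell markers above, was at 8.75 ± 0.534 TPM in CCR2-RFP and a mean of 0.149 TPM in double-negative cells (3.08, limma adjusted p = 1.97e-05); outside CCR2-RFP it reached 1 TPM in a single library, so it too was tested only through the group where it was high. The lysosomal protease gene Ctsb went the other way, at 560 ± 25.6, 300.4 ± 19.3 and 160 ± 28.0 TPM in double-negative libraries, CX3CR1-GFP and CCR2-RFP cells (CCR2-RFP minus double-negative -1.81, limma adjusted p = 1.55e-05). Also named, after their values were seen, were Lgals3, the galectin-3 gene, at 117 ± 11.9 TPM in CCR2-RFP and 15.7 ± 6.31 TPM in double-negative cells, and the osteopontin gene Spp1, which failed the filter with 0 to 1.14 TPM.

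Among tetraspanins and CD9 partners, 13 of 15 were tested, with 1 higher and 3 lower in CCR2-RFP cells than in double-negative cells. Cd63, the late endosomal tetraspanin counted in both this list and the marker list, had the opposite pattern to Cd9: 86.8 ± 5.40 TPM in double-negative libraries, 75.8 ± 7.44 TPM in CX3CR1-GFP and 10.1 ± 5.22 TPM in CCR2-RFP cells (CCR2-RFP minus double-negative -3.09, limma adjusted p = 2.59e-05). Tspan4 was also lower in CCR2-RFP cells, at 1.09 ± 1.12 against 9.38 ± 2.27 TPM (-2.42, limma adjusted p = 0.000866). Cd37, a tetraspanin of leukocytes, was lower in CX3CR1-GFP cells than in either other population, at 17.4 ± 1.68 TPM against 35.5 ± 1.65 and 38.2 ± 2.46 TPM (-0.99 and -1.09, limma adjusted p = 0.00378 and 0.000211). In CX3CR1-GFP cells 1 of the 13 was higher and 1 lower than in double-negative cells, and 3 were higher and 3 lower than in CCR2-RFP cells. All 4 MiT factor genes, a family that is known to drive lysosomal genes and Gpnmb, were tested and 2 were lower in CCR2-RFP cells than in double-negative cells. They were Mitf, at 8.50 ± 1.22 against 14.1 ± 1.29 TPM (-0.67, limma adjusted p = 0.0174), and Tfec, at 0.308 ± 0.120 against 4.96 ± 1.31 TPM (-2.17, limma adjusted p = 4.22e-05).

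**Figure D4:**
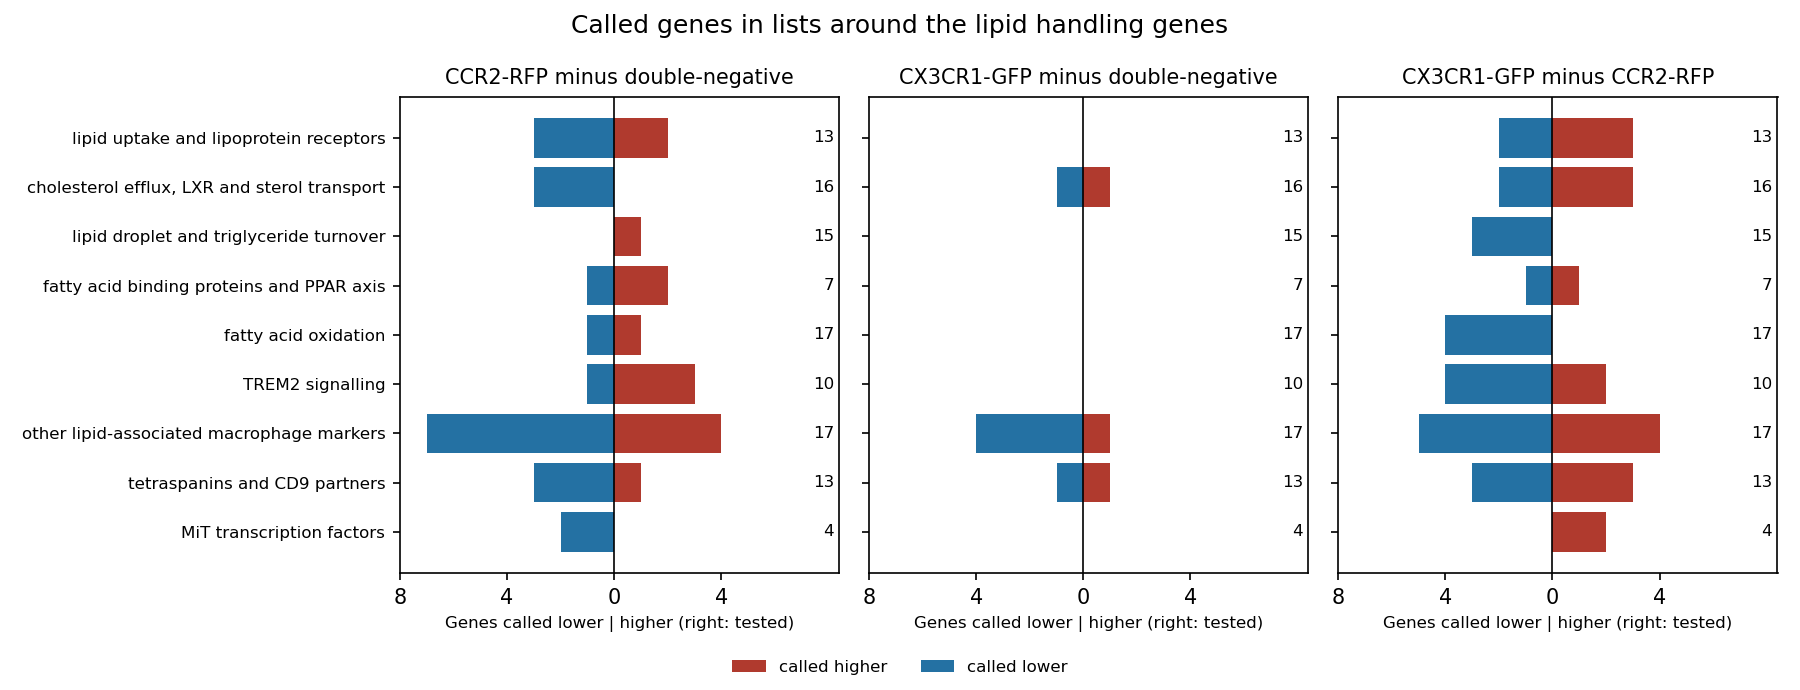
Number of genes called lower (left of 0) and higher (right of 0) in 9 lists of related genes, with the number tested at the right edge, for each contrast. Most calls are in the 2 contrasts with CCR2-RFP cells, in both directions. The same holds over all tested genes, with 24.8 and 26.3% called there against 2.77% for CX3CR1-GFP minus double-negative. The list of other lipid-associated macrophage markers has 4 higher and 7 lower for CCR2-RFP minus double-negative.

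The genes whose levels most resembled those of the 9 tested genes were taken by Pearson correlation of log2(TPM + 1) over the 9 libraries, among 2991 genes with a mean of at least 10 TPM in some population. These correlations are descriptions; the libraries fall into 3 populations, so any gene that separates CCR2-RFP cells scores high. Apoe was most like Wwp1 and Ifi207 (r = 0.995 each), the former with means of 225 TPM in double-negative libraries, 178 TPM in CX3CR1-GFP and 35.0 TPM in CCR2-RFP cells. Abca1 was most like C1qa (r = 0.992), the complement component of tissue macrophages, at 144, 119 and 41.0 TPM in that order, and then like Etv1 (r = 0.991). Trem2 was most like Fam105a (r = 0.967) and Gpr183 (r = 0.952). On the other side, Lpl was most like Cap1 (r = 0.996) and Ezr (r = 0.993), Fabp5 like Twf2 and Socs6 (r = 0.992 each), Abcg1 like Dynll1 and Nfam1 (r = 0.995 each) and Cd9 like Plbd1 and Slc38a1 (r = 0.969 each). Fabp4 and Plin2, the genes with no called contrast, had less similar nearest genes, Ifnar1 (r = 0.881) and Cux1 (r = 0.802) for Fabp4, and Fh1 (r = 0.911) and Ogdh (r = 0.887) for Plin2.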

How the data were processed

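RNA was measured in 9 libraries from 3 sorted populations; the design text gives 3 mice as 3 replicates per group, and the sort labels were read as those mice. Library input was 1 ng of total RNA, sequenced as paired 75-base reads, per the labels' protocols. The authors deposited TPM values per gene; bcl2fastq 2.18, cutadapt 1.8.3, Salmon 0.11.3 and the build mm10 are named in the submitters' processing notes. The listed genes sum to 278579 to 382828 TPM per library, of which Siglece takes 21.9 to 34.7%, so an abundant gene moves the values of all others. Depth is unknown, since TPM keeps no counts. The description label of 6 samples names the other reporter-positive population; title, source name, cell type and table headings name the same population and were used.

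Values were taken as log2(TPM + 1) and genes kept at 1 TPM or more in at least 3 of 9 libraries. The 3 population means were fitted to all 9 libraries in limma 3.58.1 (R 4.3.3, intensity trend, two-sided), with Benjamini-Hochberg adjustment over 10136 genes; the procedure was tested on simulated data. Deviations from the population mean correlated between libraries of the same sort at r = 0.0315 to 0.205 over these genes, and the fit with sort as a replicate block is an alternative. Other alternatives changed the pseudocount, filter, scaling, trend and samples, and left out each library in turn; leaving out sort 2A was added after its muscle genes were seen. Coordinates are from GENCODE M21, which held 85.87% of the listed symbols and all 10 genes, and promoter sequences from RefSeq. The 10 genes and the lists were chosen with earlier results of these data known. The rule for named genes took all 10 genes; of each list, up to 3 called genes with the smallest p or, in a list without a call, the 2 most abundant; and for each tested gene the 2 nearest by correlation; others are said to have been named after their values were seen.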

Additional observations from a re-analysis of the deposited data

How the results depend on the processing

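The calls of Apoe, Lpl, Fabp5, Trem2 and Abca1 in both contrasts with CCR2-RFP cells, and that of Cd9 between CCR2-RFP and double-negative cells, were made in all 20 alternatives, and those of Abcg1 in the 16 that tested it. Abcg1 was tested through the group where it was high, so its repeated calls are no further support. Against double-negative cells, CX3CR1-GFP cells had 1 called gene of the 9 and 0 with a pseudocount of 5 TPM, without the filter, with the replicate block, with the 2 populations alone or without sort 2A, and 0 to 1 without single libraries; the block changed no other call of the 9. Reversals concerned differences that were never called among the 10 genes. Apoe, CX3CR1-GFP minus double-negative, was 0.0083 after rescaling without Siglece, Rn18s and mitochondrial genes and 0.010 without sort 2A, and ran from -0.21 to 0.024 without single libraries, where leaving out CX3CR1-GFP 2A turned it. Fabp4, CCR2-RFP minus double-negative, ran from -0.32 to 0.19 without single libraries and was positive without double-negative 1 or CCR2-RFP 1. Fabp5, CX3CR1-GFP minus double-negative, ran from -0.40 to 0.017, was positive without CX3CR1-GFP 2A, and was 0.0020 without sort 2A, where Lpl was -0.079. Of the called genes in the lists, Anxa5 alone reversed, at 0.021 for CX3CR1-GFP minus CCR2-RFP with quantile normalization. Over all genes, calls for CX3CR1-GFP against double-negative went from 281 to 146 without the filter, 88 without sort 2A and 126 to 259 without single libraries. CCR2-RFP against double-negative went from 2513 to 1652 without sort 2A and 1778 to 2767 without single libraries, and CX3CR1-GFP against CCR2-RFP from 2666 to 1767 and 1840 to 2548. Rescaling moved the median log2 difference of all genes from 0.09 to -0.10, from -0.03 to 0.04 and from -0.11 to 0.16 in the 3 contrasts as ordered in the report, and the share of calls that were higher from 60.2 to 43.1%, from 42.0 to 55.4% and from 34.1 to 61.1%. The cause of these changes was not tested.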
